A study of Mus musculus with 4 samples.

Results

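The respiratory chain and the ATP synthase of the inner mitochondrial membrane are built from subunits encoded mostly in the nucleus, and 83 of the 19938 genes that the array names are described here. They were taken by symbol alone: symbols that begin Nduf followed by a, b, c, s or v and a number (complex I), Sdha to Sdhd (complex II), symbols that begin Uqcr together with Cyc1 (complex III), Cycs (cytochrome c), symbols that begin Cox followed by a number from 4 to 8 (complex IV) and symbols that begin Atp5 (complex V, the ATP synthase). Ndufa4 and Ndufa4l2, whose names recall complex I, were counted with complex IV, of which Ndufa4 is a subunit. This gave 33 genes of complex I, 4 of complex II, 9 of complex III, 1 for cytochrome c, 19 of complex IV and 17 of complex V. The rule itself uses no measured value, but it was set with earlier results of these data known.

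Messenger RNA was measured in intestinal epithelial cells of the colon from mice of the strain C57BL/6, aged 6 to 8 weeks, on day 12 of a model of colitis-associated colorectal cancer. All 4 groups had received azoxymethane (AOM, a carcinogen that alkylates DNA) at 10 mg/kg and then 3.5% dextran sulfate sodium (DSS, which injures the colon lining) in the drinking water for 5 days. The cells were shaken off opened colons in EDTA, without a sorting step in the labels, and their total RNA was hybridised to an Affymetrix Mouse Gene 1.0 ST array. The groups were WT, Bmi1ΔIEC (Bmi1 deleted in intestinal epithelial cells), Mel18ΔIEC (Mel18, whose gene symbol is Pcgf2, deleted there) and DKO (both deleted), with 1 array each, so the layout compares loss of either Polycomb gene alone with loss of both. The sources used here do not name the Cre driver, or say how many animals stand behind an array and whether they were pooled. Bmi1 and Mel18 are paralogous subunits of Polycomb repressive complex 1.

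Each genotype has 1 array, so the spread between replicates is unknown and no difference between arrays below carries a p-value or an error. A difference is given in log2 units of the deposited intensity, and a gene was counted as lower or higher when it was at least 1.5-fold apart. A gene entered the counts when its log2 intensity was at least 6 on its brightest array, which 12526 genes and 80 of the 83 members did. As a scale for these differences, the spread of all genes between Bmi1ΔIEC and WT was 0.19 (scaled median absolute deviation), that between Mel18ΔIEC and WT was 0.22, and that between DKO and WT was 0.57. The probe sets for the targeted genes did not follow the labels: Bmi1 read 7.64 on DKO, 7.43 on Bmi1ΔIEC, 7.00 on Mel18ΔIEC and 7.25 on WT, and Pcgf2 read 6.81, 6.72, 6.84 and 6.96 in that order. Whether these probes lie in the deleted exons is not known here, so the genotypes rest on the labels. The WT array stood apart by transcripts of the seminal vesicle. Their 9 marker genes summed to an intensity of 16039 there and to between 163 and 368 on the other arrays. Some genes of striated muscle, whose values stand beside Cox8b below, were also high on it. The comparison of DKO with the mean of both single deletions, which does not use WT, is therefore given beside that with WT.

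Complex I (NADH dehydrogenase) and complex II (succinate dehydrogenase) pass electrons to ubiquinone, complex III passes them to cytochrome c, and complex IV (cytochrome c oxidase) passes them to oxygen. Complexes I, III and IV pump protons across the inner membrane, and the ATP synthase uses the resulting gradient to make ATP. Differentiated colonocytes are known for burning butyrate, made by gut bacteria, through this chain.

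On the DKO array the subunits of every complex read lower, by a median of 0.52 against WT (middle quartiles -0.76 to -0.34), a factor of 1.43. In all, 77 of the 80 members were below their WT level, 31 were at least 1.5-fold lower and 0 were at least 1.5-fold higher. Cox8b, counted among the 31, passed the floor on WT alone. Over all 12526 genes the median difference was -0.05, 20.2% were at least 1.5-fold lower and 14.3% at least 1.5-fold higher. At a 2-fold threshold only Cyc1 was counted as lower, with 8.19% of all genes. Against the mean of both single deletions the members' median was -0.63, with 49 of 80 at least 1.5-fold lower (18.8% of all genes) and 0 higher (14% of all genes), and 10 were at least 2-fold lower (6.51% of all genes). Taken singly, 40 of 80 on DKO were at least 1.5-fold below Bmi1ΔIEC (17.7% of all genes, with 14.3% higher) and 53 of 80 at least that far below Mel18ΔIEC (20.8%, with 14.1% higher). The DKO array was the lowest of the 4 for 76 of the 80 members, as it was for 46% of all genes. These comparisons share the DKO array, and the members' lower levels on it are 1 observation of that array rather than separate ones. The size depended on the scaling. After cyclic loess scaling of the arrays 79 members passed the floor. Their median against WT was then -0.33 with 20 at least 1.5-fold lower, and that against the single deletions was -0.44 with 27. The medians over all genes were 0.02 and 0.01 in these 2 comparisons. The share of all genes at least 1.5-fold lower under that scaling is not given here, so these counts have no background beside them.

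**Figure D1:**
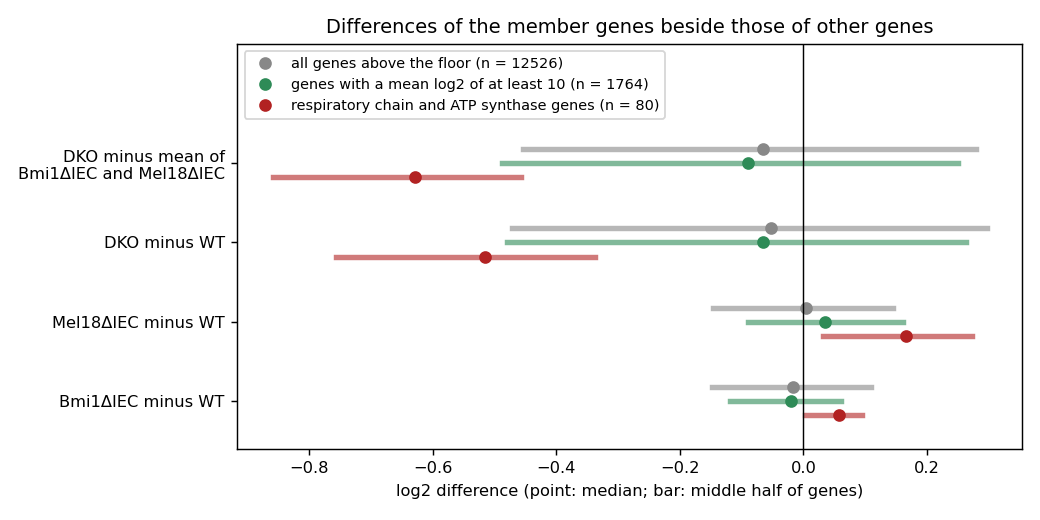
Median log2 difference (points) and middle quartiles (bars) for the 80 respiratory chain and ATP synthase genes, for the 1764 genes with a mean log2 intensity of at least 10 and for all 12526 genes above the floor, in 4 comparisons between single arrays or their means. The members sit at -0.52 in DKO minus WT and at -0.63 against the single deletions, and close to or above 0 in both single deletions.

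Neither single deletion showed this. On the Bmi1ΔIEC array the members' median difference from WT was 0.058, against -0.02 for all genes, with Cox8b the only one at least 1.5-fold lower (1.53% of all genes) and Cox7a1 the only one at least 1.5-fold higher (2.02% of all genes). Centring each array on its median moved both down alike, to -0.02 for the members and -0.09 for all genes. On the Mel18ΔIEC array the median was 0.17, against 0.00 for all genes, with 66 of the 80 members above WT. Cox8b was at least 1.5-fold lower there (2.35% of all genes), and Cox7a1, Ndufb2 and Ndufb7 were at least 1.5-fold higher (1.19% of all genes). Cox8b, the only member counted lower on either single deletion, passed the floor on WT alone. At 2-fold the members counted were 0 in either direction, on Bmi1ΔIEC (0.359% of all genes lower, 0.551% higher) and on Mel18ΔIEC (0.814% lower, 0.144% higher). Between the single deletions Ndufb2 alone was at least 1.5-fold higher on Mel18ΔIEC (1.24% of all genes) and 0 members were lower (3.26% of all genes). The Mel18ΔIEC array was the highest of the 4 for 51 of the 80 members, compared with 26.6% of all genes. Genes that read bright did not as a class behave like the members: among the 1764 genes with a mean log2 of at least 10, the median DKO minus WT was -0.07 and 18.8% were at least 1.5-fold lower.

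An additive model for loss of Bmi1 and loss of Mel18, fitted over all 4 arrays and 12526 genes with limma, called 0 members and 0 genes for either loss at a Benjamini-Hochberg adjusted p under 0.05. The lowest adjusted p of a member in limma was 0.849 for Bmi1 and 0.952 for Mel18. At an unadjusted p under 0.05 limma counted 324 genes (2.59%) for Bmi1 and 138 (1.1%) for Mel18, with 0 members in either. The members' median coefficient was -0.31 for Bmi1 and -0.21 for Mel18, with a median standard error of 0.29. The layout leaves 1 residual degree of freedom, which holds the departure from additivity, so a difference seen mainly on the double deletion enters the error of this fit.

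Colon preparations hold other cells, and their markers moved on the same array. Epithelial markers (14 genes, among them Epcam, Cdh1 and Krt8) summed to 62379 on DKO, 63981 on Bmi1ΔIEC, 65351 on Mel18ΔIEC and 63337 on WT, with a median DKO minus WT of 0.05, although Slc26a3, the chloride-bicarbonate exchanger of surface colonocytes, and the homeobox gene Cdx1 were lower by 1.60 and 1.36. Neutrophil markers summed to 31373, 19890, 9003 and 12933 on the same arrays. Ly6g weighs heavily in these sums and was nearly flat, at 12.79, 12.70, 12.78 and 12.88. The median log2 level of the 13 markers was 10.41, 9.70, 6.86 and 7.96. On DKO 11 of the 13 were at least 1.5-fold above WT (14.3% of all genes), with a median difference of 2.24. Mononuclear phagocyte markers summed to 10944, 4002, 2463 and 3225, with 10 of 11 higher. For fibroblasts the sums were 7852, 4673, 1978 and 2875, with 7 of 9 markers higher, and for endothelium 1523, 782, 546 and 626, with 8 of 8 higher. On Bmi1ΔIEC the neutrophil sum was above that of WT while the members' median was 0.058 above WT, and Mel18ΔIEC had the lowest neutrophil sum and the highest members. The part of these cells in the members' lower levels was not tested, and in a bulk sample fewer cells of a type and less RNA per cell cannot be told apart.

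**Figure D2:**
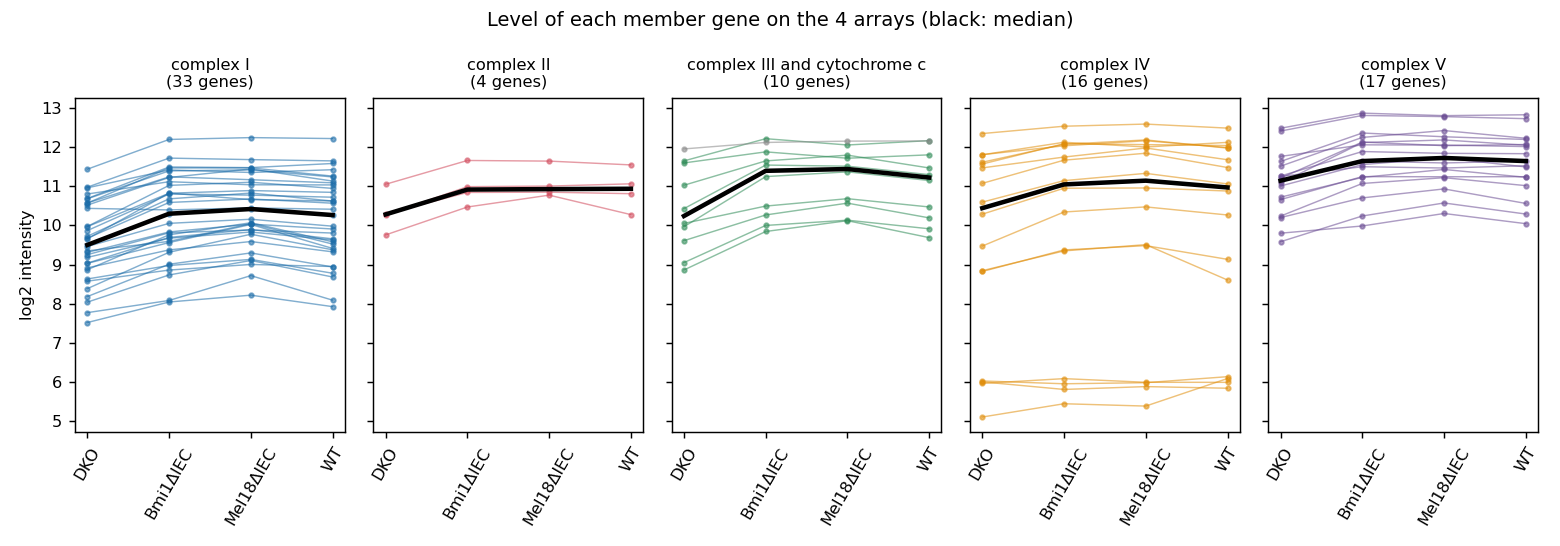
Log2 intensity of each of the 80 measured genes (thin lines) on the DKO, Bmi1ΔIEC, Mel18ΔIEC and WT arrays, by complex, with the median of the complex in black; cytochrome c is the gray line beside complex III. The median dips on DKO in each complex, and the 4 lines near the floor are tissue-restricted isoforms of complex IV.

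Promoters of members are shown because many of these genes read lower together and nuclear respiratory genes are known for shared binding sequences of NRF1, of ETS factors (GABP or NRF2), of YY1 and of the estrogen-related receptors. RefSeq windows of 300 bases on GRCm38.p6, from 250 bases before to 50 after a start, were held for 67 of the 83 members, in 72 windows. Capitals mark matches to GCGCANGCG (NRF1), CCGGAAG (ETS), AAGATGGC (YY1) or TCAAGGTCA (estrogen-related receptors) on either strand, and a match is a run of letters, not a measured binding site. The genes are the lowest in DKO minus WT of complexes I, II, IV and V, cytochrome c, the 3 genes of ATP synthase subunit c and the pair of Cox7a paralogs. Ndufa6, which read the same on all 4 arrays, was added after its values were seen. Cyc1, the lowest of complex III, is named only.
Ndufa5, chr6:24527641-24527940, strand -: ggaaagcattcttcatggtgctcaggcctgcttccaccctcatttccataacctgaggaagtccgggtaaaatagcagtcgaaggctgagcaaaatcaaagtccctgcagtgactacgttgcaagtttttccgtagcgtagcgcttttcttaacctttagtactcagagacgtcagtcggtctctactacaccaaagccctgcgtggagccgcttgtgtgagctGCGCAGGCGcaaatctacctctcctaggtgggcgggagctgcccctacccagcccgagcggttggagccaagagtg
Ndufa6, chr15:82354242-82354541, strand -: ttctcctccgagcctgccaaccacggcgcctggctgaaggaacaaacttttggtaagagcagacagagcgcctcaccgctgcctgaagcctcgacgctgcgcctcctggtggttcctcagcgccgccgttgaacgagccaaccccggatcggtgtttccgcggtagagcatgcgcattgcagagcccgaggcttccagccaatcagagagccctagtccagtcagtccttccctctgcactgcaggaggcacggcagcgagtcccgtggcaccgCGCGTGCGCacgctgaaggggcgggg
Sdhd, chr9:50603800-50604099, strand -: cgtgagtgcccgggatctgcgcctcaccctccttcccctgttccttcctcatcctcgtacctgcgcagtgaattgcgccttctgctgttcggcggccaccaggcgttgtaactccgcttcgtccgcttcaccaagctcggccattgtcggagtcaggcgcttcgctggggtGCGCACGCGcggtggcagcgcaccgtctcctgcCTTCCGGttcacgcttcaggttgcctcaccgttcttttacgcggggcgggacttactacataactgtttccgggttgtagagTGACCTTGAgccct
Cycs, chr6:50566520-50566819, strand -: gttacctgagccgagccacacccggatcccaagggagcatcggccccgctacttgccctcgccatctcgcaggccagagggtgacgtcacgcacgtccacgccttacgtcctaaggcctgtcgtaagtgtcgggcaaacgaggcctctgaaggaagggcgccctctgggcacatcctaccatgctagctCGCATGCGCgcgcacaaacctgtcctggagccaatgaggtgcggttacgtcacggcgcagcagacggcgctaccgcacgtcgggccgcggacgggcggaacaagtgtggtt
Cox8b, chr7:140900397-140900696, strand -: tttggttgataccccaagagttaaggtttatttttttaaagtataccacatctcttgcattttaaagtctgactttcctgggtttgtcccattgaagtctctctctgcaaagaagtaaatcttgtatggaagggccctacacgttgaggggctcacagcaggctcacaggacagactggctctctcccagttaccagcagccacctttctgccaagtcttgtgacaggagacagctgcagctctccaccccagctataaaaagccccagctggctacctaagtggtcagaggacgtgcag
Cox7a1, chr7:30183921-30184220, strand +: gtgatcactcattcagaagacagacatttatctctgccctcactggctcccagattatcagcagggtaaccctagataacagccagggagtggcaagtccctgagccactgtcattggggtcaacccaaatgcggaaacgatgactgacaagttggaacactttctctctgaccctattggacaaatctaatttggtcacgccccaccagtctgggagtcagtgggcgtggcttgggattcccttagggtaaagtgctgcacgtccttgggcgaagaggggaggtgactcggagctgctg
Cox7a2, chr9:79759804-79760103, strand -: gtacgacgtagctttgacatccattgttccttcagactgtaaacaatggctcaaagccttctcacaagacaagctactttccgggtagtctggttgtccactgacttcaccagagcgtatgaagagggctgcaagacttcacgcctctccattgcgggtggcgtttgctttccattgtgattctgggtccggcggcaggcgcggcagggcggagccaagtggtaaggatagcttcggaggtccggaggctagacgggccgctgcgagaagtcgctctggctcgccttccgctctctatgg
Atp5g1, chr11:96075582-96075881, strand -: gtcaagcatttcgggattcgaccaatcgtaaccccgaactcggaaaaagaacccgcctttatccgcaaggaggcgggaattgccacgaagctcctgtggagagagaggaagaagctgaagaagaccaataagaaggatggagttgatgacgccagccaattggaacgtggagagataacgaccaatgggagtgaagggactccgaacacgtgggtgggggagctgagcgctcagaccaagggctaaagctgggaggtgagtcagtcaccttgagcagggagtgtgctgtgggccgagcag
Atp5g2, chr15:102670998-102671297, strand -: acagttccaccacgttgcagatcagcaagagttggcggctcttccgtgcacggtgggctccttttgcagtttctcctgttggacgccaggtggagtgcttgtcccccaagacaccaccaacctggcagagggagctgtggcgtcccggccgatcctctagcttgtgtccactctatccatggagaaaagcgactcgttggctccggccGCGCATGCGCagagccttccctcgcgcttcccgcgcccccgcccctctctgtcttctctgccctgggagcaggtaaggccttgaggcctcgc
Atp5g3, chr2:73911277-73911576, strand -: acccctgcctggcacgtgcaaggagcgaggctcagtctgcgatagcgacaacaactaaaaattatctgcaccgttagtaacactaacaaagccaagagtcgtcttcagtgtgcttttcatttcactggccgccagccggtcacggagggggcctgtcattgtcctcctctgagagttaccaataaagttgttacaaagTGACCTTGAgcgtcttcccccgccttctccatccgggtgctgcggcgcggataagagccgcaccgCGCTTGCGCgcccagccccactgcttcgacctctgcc

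The NRF1 letters GCGCANGCG were in 21 of the members' 72 windows (29.2%) and in 6.25% of all 32851 windows of the same length. The ETS letters CCGGAAG were in 17 (23.6%, against 8.86%), the YY1 letters AAGATGGC in 10 (13.9%, against 2.75%) and the receptor letters TCAAGGTCA in 2 (2.78%, against 0.423%). The letters CCAAT were in 31 windows (43.1%, against 37.4%) and TATAAA in 9 (12.5%, against 13.6%). Ndufa5, Ndufa6 and Cycs all hold the NRF1 letters, and their DKO minus WT was -0.99, 0.02 and -0.20. Of the subunit c genes, Atp5g2 and Atp5g3 hold the NRF1 letters and Atp5g1 does not. All 3 were at least 1.5-fold lower (20.2% of all genes). Sdhd and Atp5g3 are the members with the receptor letters. The 20 measured members with the NRF1 letters had a median of -0.63 (from -0.99 to 0.02) and the 46 without had -0.49 (from -0.98 to 0.24). The YY1 letters went the same way (-0.62 for 10 with, -0.52 for 56 without), as did the receptor letters (-0.75 for 2, -0.52 for 64). For the ETS letters the order was the other way, with -0.44 for the 17 members that have them and -0.58 for the 49 that do not. So it was for CCAAT (-0.36 for 29 with, -0.69 for 37 without) and TATAAA (-0.37 for 7, -0.57 for 59). These splits are descriptions of 1 pair of arrays.

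Against WT, complex I had the lowest median of the multi-gene complexes, -0.61. DKO was below WT for 32 of its 33 subunits and at least 1.5-fold below it for 18 (54.5%, against 20.2% of all genes). Against the mean of both single deletions complex III was lowest instead, at -0.81. Complexes I, II, IV and V were then at -0.76, -0.66, -0.45 and -0.61. The 6 measured core subunits of complex I, most of which hold the flavin or iron-sulfur clusters, had a median of -0.76 against WT. They ran from -0.97 for Ndufv1 to -0.45 for Ndufs1. Ndufv1, which binds NADH and the flavin, read 9.66 on DKO, 10.82 on Bmi1ΔIEC, 10.65 on Mel18ΔIEC and 10.62 on WT. DKO was the low array by about 1 log2 unit while the other 3 lay between 10.62 and 10.82. The 27 accessory subunits surround the core and are needed for its assembly and stability. Their median was -0.60, and 14 were at least 1.5-fold lower (51.9%, against 20.2% of all genes). Ndufa5, an accessory subunit of the matrix arm, read 8.39, 9.31, 9.77 and 9.38 on DKO, Bmi1ΔIEC, Mel18ΔIEC and WT, the largest difference of the complex at -0.99. Ndufa9, which sits where the matrix and membrane arms join, read 9.97, 11.02, 11.10 and 10.94, a difference of -0.97.

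Not every accessory subunit was lower on DKO. Ndufa6, of the LYR protein family, read 10.43 on DKO, 10.39 on Bmi1ΔIEC, 10.45 on Mel18ΔIEC and 10.41 on WT, so its 4 arrays lay within 0.06 of each other. Ndufv3, a small subunit of the NADH-binding module, read 8.63, 8.98, 9.13 and 8.78, and DKO was 0.15 below WT. Ndufa6 was 0.20 above WT on DKO after cyclic loess scaling, where Ndufv3 was at -0.01. Mel18ΔIEC stood highest for 25 of the 33 genes (26.6% of all genes), and its largest excesses over WT were in small accessory subunits. Ndufb2 read 7.77, 8.08, 8.72 and 8.09 on DKO, Bmi1ΔIEC, Mel18ΔIEC and WT, 0.63 above WT on Mel18ΔIEC. Ndufb7 read 9.03, 9.56, 10.02 and 9.41, and was 0.61 above WT there. Ndufa1 read 9.35, 9.59, 10.04 and 9.52, and was 0.52 above. The excess of Mel18ΔIEC over WT was larger for members that read dimmer (Pearson r -0.60, Spearman rho -0.58 over 74 structural members that share the same arrays), and DKO minus WT had no such relation (r 0.12, rho 0.18). On Bmi1ΔIEC the largest excess in complex I was that of Ndufa10, 10.57, 11.47, 11.46 and 11.26 in the same order, at 0.21.

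Complex II, which is also an enzyme of the citric acid cycle, has 4 subunits and all are encoded in the nucleus. The membrane anchor Sdhd was the lowest, at 10.27 on DKO, 10.99 on Bmi1ΔIEC, 11.00 on Mel18ΔIEC and 11.06 on WT, a difference of -0.79. The other anchor, Sdhc, read 10.29, 10.84, 10.85 and 10.81, a difference of -0.52. The iron-sulfur subunit Sdhb read 9.76, 10.47, 10.77 and 10.27, so Mel18ΔIEC was 0.50 above WT and DKO 0.52 below it. The flavoprotein Sdha, which oxidises succinate, read 11.05, 11.66, 11.64 and 11.54, a difference of -0.49. In each of the 4 genes DKO was below all 3 other arrays, as it was for 46% of all genes. Only Sdhd was at least 1.5-fold below WT (25%, against 20.2% of all genes).

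Complex III gave the largest difference of any member. Cyc1, the cytochrome c1 heme subunit that hands electrons to cytochrome c, read 9.96 on DKO, 11.24 on Bmi1ΔIEC, 11.36 on Mel18ΔIEC and 11.14 on WT. On DKO it was 2.27-fold below WT, and the difference was -0.99 on the log2 scale after cyclic loess scaling in place of -1.18. The 4 redox and core subunits (Cyc1, Uqcrfs1, Uqcrc1 and Uqcrc2) had a median of -0.85 and the 5 small subunits -0.44. Uqcrc1, a core protein, read 10.43, 11.54, 11.51 and 11.29 on DKO, Bmi1ΔIEC, Mel18ΔIEC and WT, a difference of -0.87 from WT, and was 0.24 above WT on Bmi1ΔIEC. Uqcr10, a small subunit, read 9.05, 10.00, 10.13 and 9.91, a difference of -0.86. Uqcrb, which takes part in binding ubiquinone, read 11.59, 11.87, 11.71 and 11.80, and its -0.21 became 0.00 after cyclic loess scaling.

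Cytochrome c itself differed little. Cycs, the soluble carrier between complexes III and IV that is also known for its release in apoptosis, read 11.95 on DKO, 12.12 on Bmi1ΔIEC, 12.15 on Mel18ΔIEC and 12.15 on WT. Its difference of -0.20 turned to 0.011 after cyclic loess scaling. Another of its 3 probe sets gave the same -0.20, and the dimmest gave 0.02. Cyc1 and Cycs, which meet in electron transfer, thus differed from WT by -1.18 and -0.20 on DKO.

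**Figure D3:**
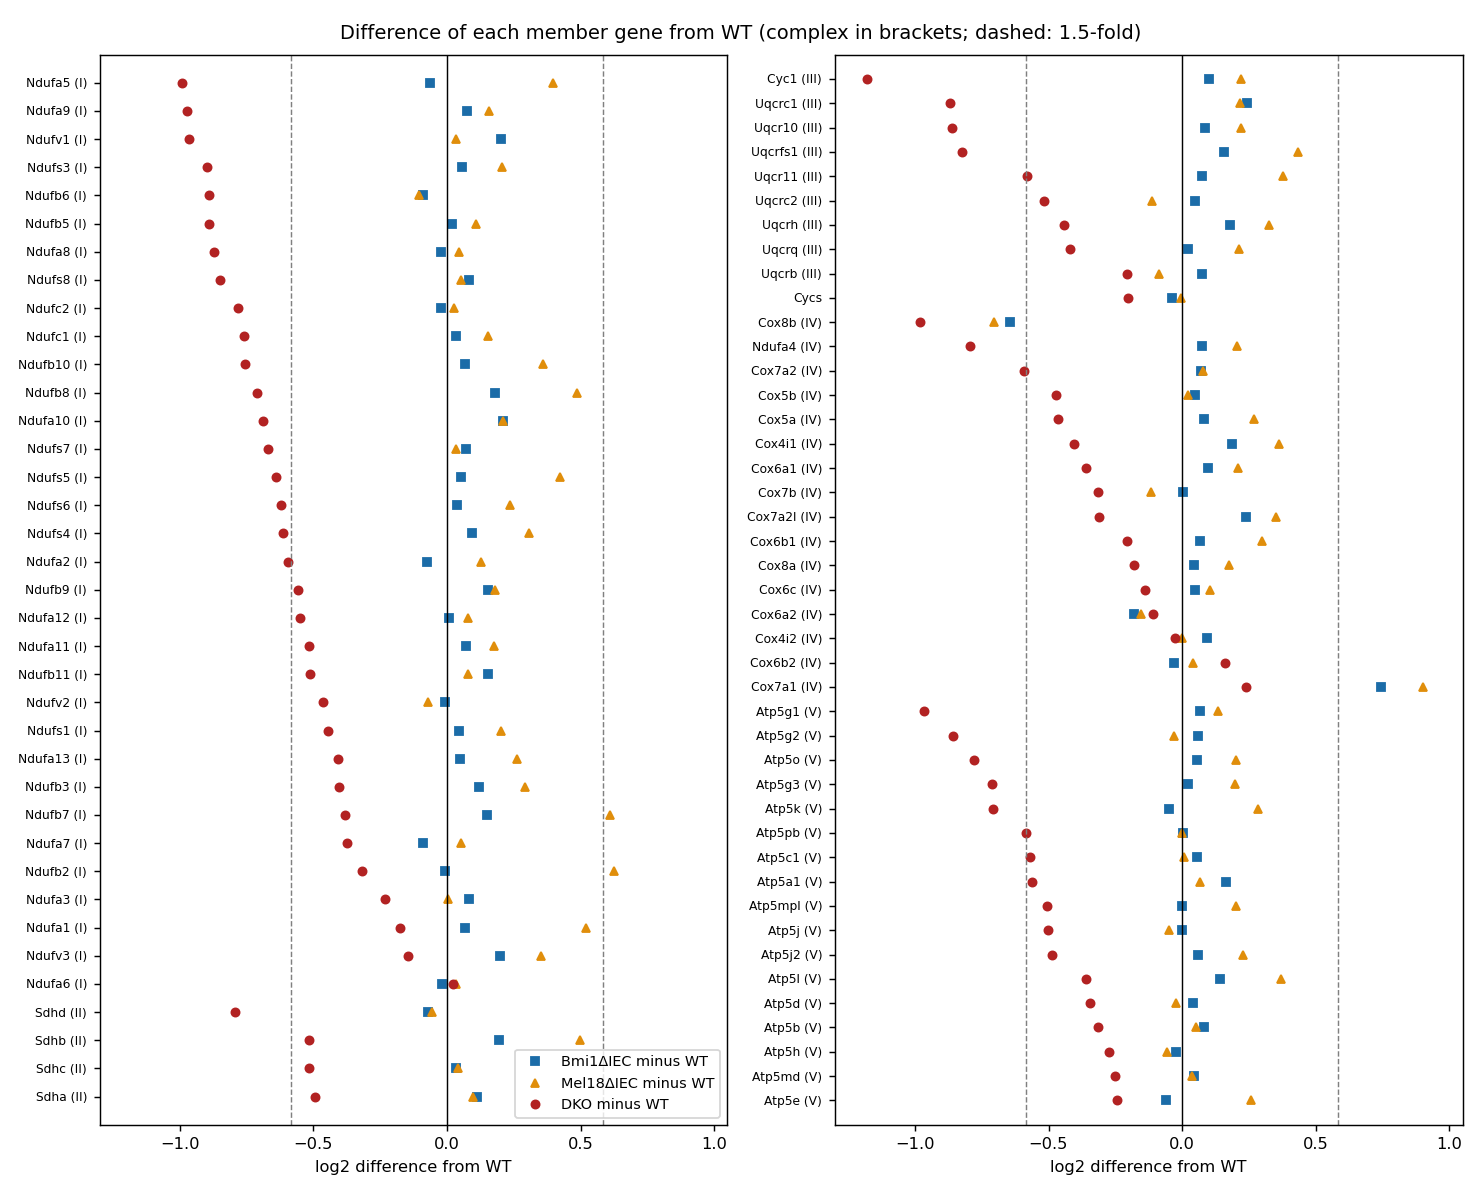
Log2 difference from WT of each measured gene on the DKO (circles), Bmi1ΔIEC (squares) and Mel18ΔIEC (triangles) arrays, sorted by DKO minus WT within a complex; dashed lines mark 1.5-fold. The circles lie left of 0 for all but Ndufa6, Cox6b2 and Cox7a1, and Cyc1 is farthest left at -1.18.

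Complex IV differed least of the multi-gene complexes, with a median of -0.31. On DKO 3 of 16 measured subunits were at least 1.5-fold under WT, a share (18.8%) near the 20.2% of all genes. Cox8b, among these 3, passed the floor on WT alone. The 10 ubiquitous nuclear subunits had a median of -0.38, with 2 at least 1.5-fold lower (20%, near the 20.2% of all genes). All 10 were lowest on DKO, as were 46% of all genes. Ndufa4, the subunit once assigned to complex I, read 9.47 on DKO, 10.34 on Bmi1ΔIEC, 10.47 on Mel18ΔIEC and 10.26 on WT, a difference of -0.79 and the lowest of these 10. Among the ubiquitous subunits the dimmer genes were farther below WT (Pearson r 0.89, Spearman rho 0.84 over 10 genes on the same arrays), which was not so in complex I (r -0.31 over 33 genes). The complex IV median moved to -0.15 after cyclic loess scaling.

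Several subunits of complex IV have tissue-restricted versions. The Cox7a pair differed: Cox7a2, the widely expressed form, read 10.28 on DKO, 10.95 on Bmi1ΔIEC, 10.95 on Mel18ΔIEC and 10.88 on WT, a difference of -0.59. Cox7a1, the form of heart and skeletal muscle, read 8.84, 9.35, 9.51 and 8.60, so WT was the lowest array and DKO was 0.24 above it. Cox7a1 was 1.67-fold above WT on Bmi1ΔIEC and 1.87-fold on Mel18ΔIEC, the largest excess of any member on either array, while DKO was 0.59 below the mean of both. The 12 smooth and striated muscle markers together summed to 1639 on DKO, 1211 on Bmi1ΔIEC, 1019 on Mel18ΔIEC and 1735 on WT, a total in which smooth and striated genes differed, and their part in the Cox7a1 values was not tested. Cox7a2l, which helps join complexes III and IV and is no core subunit, read 8.82, 9.37, 9.48 and 9.13, a difference of -0.31, or of -0.13 by its other probe set.

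The remaining restricted forms read near the floor. Cox8b, a heart and muscle form, read 5.11 on DKO, 5.45 on Bmi1ΔIEC, 5.39 on Mel18ΔIEC and 6.09 on WT, and passed the floor on WT alone. Some genes of striated muscle were high on the same array. Myl1, a myosin light chain, read 4.99, 4.84, 4.97 and 6.66 in that order, and Ckm, the muscle creatine kinase, read 6.55, 6.30, 6.08 and 7.30. The troponin gene Tnnt3 read 6.73, 6.60, 6.60 and 7.53, and the skeletal actin gene Acta1 read 7.59, 7.81, 7.23 and 8.32. These 4 were highest on WT, as Cox8b was, and were picked from the muscle list after its values were seen. Actc1, another actin gene of that list, was not: it read 6.91, 6.67, 6.64 and 6.76, highest on DKO. The smooth muscle genes Acta2 and Myh11 were also highest on DKO, 0.77 and 0.47 above WT. The part of muscle RNA on the WT array in the Cox8b differences was not tested. Its difference of -0.98 from WT became -0.59 when 32 was added to the intensity before the log. Its widely expressed partner Cox8a read 11.80, 12.03, 12.16 and 11.98, a difference of -0.18. Cox6a2, the other muscle form, read 6.03, 5.96, 5.99 and 6.14, and Cox6a1 read 11.61, 12.07, 12.18 and 11.97, a difference of -0.36. For the subunit 4 pair, Cox4i2, known from lung and from hypoxia, read 5.97, 6.09, 6.00 and 5.99, and Cox4i1 read 11.07, 11.66, 11.84 and 11.48, a difference of -0.40. Cox6b2, of testis, read 6.01, 5.81, 5.89 and 5.84, and Cox6b1 read 11.47, 11.74, 11.97 and 11.67, a difference of -0.21. In these 3 pairs the widely expressed gene was lowest on DKO, and the restricted gene stayed within 0.20 across the 4 arrays. Cox7b2, Cox8c and Ndufa4l2 were under the floor on every array and were not counted.

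The ATP synthase had a median of -0.51, and all 17 genes were lowest on DKO, as were 46% of all genes. Of the 17, 5 were at least 1.5-fold below WT (29.4%, against 20.2% of all genes). Subunit c, the ring that turns as protons pass, is encoded by 3 genes with the same mature protein and different import sequences, and their median was -0.86. Atp5g1 read 11.08 on DKO, 12.11 on Bmi1ΔIEC, 12.18 on Mel18ΔIEC and 12.04 on WT, a 1.95-fold difference between WT and DKO. Atp5g2 read 11.21, 12.12, 12.03 and 12.06, a difference of -0.86, which its other probe sets gave within 0.04. Atp5g3 read 11.51, 12.24, 12.42 and 12.22, a difference of -0.71. All 3 therefore lay well below their other arrays on DKO.

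The 5 subunits of the catalytic head and central stalk (Atp5a1, Atp5b, Atp5c1, Atp5d and Atp5e) had a median of -0.34 and ran from -0.57 to -0.24, a range that overlaps those of the peripheral stalk (-0.78 to -0.27) and of the accessory membrane subunits. Atp5e, the smallest subunit of the stalk, read 9.80, 9.98, 10.30 and 10.04 on DKO, Bmi1ΔIEC, Mel18ΔIEC and WT, a difference of -0.24. The 4 subunits of the peripheral stalk, which holds the head still, had a median of -0.54, and the lowest was Atp5o at 10.24, 11.07, 11.22 and 11.01, a difference of -0.78. The 5 accessory membrane subunits had a median of -0.49, from -0.71 for Atp5k to -0.25 for Atp5md, which read 11.76, 12.05, 12.05 and 12.01. After cyclic loess scaling Atp5md was at -0.04 and Atp5e at -0.07.

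Where a member had several probe sets, they mostly gave like values. Of the 17 such genes, 13 had probe sets within 0.1 of each other in DKO minus WT, and the widest range was 0.28, for Uqcr11, a small subunit of complex III. Another 6 probe sets that name a member together with other genes were left out, and their DKO minus WT ran from -0.93 to -0.18. Processed pseudogenes of these genes are common, and whether a probe set also reads such copies was not checked.

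Other genes that serve the chain were set beside the subunits. Assembly factors, which insert cofactors and join modules, had a median DKO minus WT of -0.79. Of 41, 26 were at least 1.5-fold lower (20.2% of all genes) and 0 higher (14.3% of all genes). Bcs1l, which places the iron-sulfur protein into complex III, read 6.97 on DKO, 8.55 on Bmi1ΔIEC, 8.67 on Mel18ΔIEC and 8.75 on WT. Ecsit and Foxred1, both of complex I assembly, were lower by 1.34 and 1.30. Enzymes of pyruvate dehydrogenase and the citric acid cycle had a median of -0.72. All 17 were below WT, and 11 were at least 1.5-fold lower (20.2% of all genes). The largest differences were those of Idh2 at -1.46, Fh1 at -1.17 and Dlat at -1.15. For regulators of mitochondrial biogenesis the median was -0.53. Of 19, 16 were below WT and 8 at least 1.5-fold lower (20.2% of all genes). The mitochondrial rRNA methyltransferase Tfb1m was at -1.23, the DNA helicase Twnk at -1.01 and the mitochondrial RNA polymerase Polrmt at -0.94. The factors of the promoter letters differed less. Nrf1 was at -0.36, Yy1 at -0.14, Gabpa at 0.07 and Gabpb1 at 0.05. Of the estrogen-related receptors, Esrra was at -0.20, Esrrg at -0.37 and Esrrb under the floor. The part of these factors in the members' levels was not tested. Carriers had a median of -0.40, and 1 of 8 was at least 1.5-fold lower (12.5%, under the 20.2% of all genes): Slc25a4, an ADP/ATP carrier, at -0.59, followed by the outer membrane channel Vdac1 at -0.49 and the carrier Slc25a5 at -0.46.

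Both subunits of mitochondrial DNA that the array names did not share the difference. COX2, the complex IV subunit that receives electrons from cytochrome c, read 12.85 on DKO, 12.83 on Bmi1ΔIEC, 12.68 on Mel18ΔIEC and 12.71 on WT. ND3 of complex I read 12.34, 12.37, 12.08 and 12.33. On DKO they were 0.15 and 0.00 above WT, while the nuclear members of complexes IV and I had medians of -0.31 and -0.61. The comparison is between genes of unlike brightness, since the median mean log2 level of those members was 10.90 and 10.12. COX2 and ND3 each rest on 1 probe set, and whether these also read other copies was not checked.

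**Figure D4:**
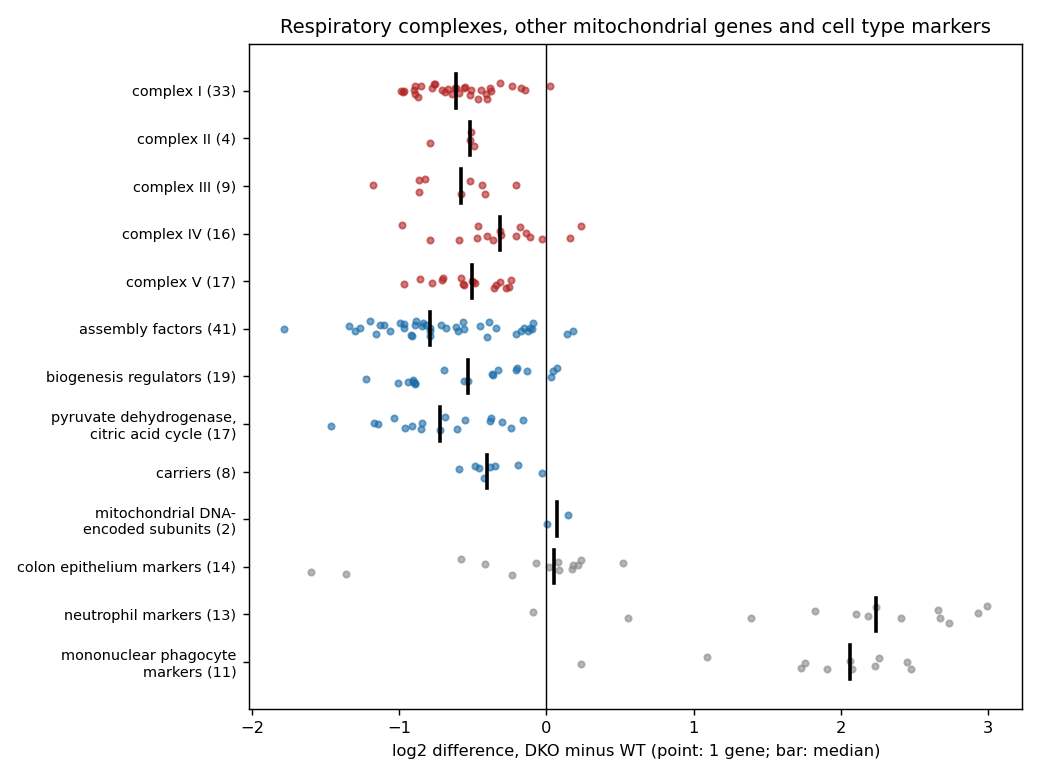
DKO minus WT in log2 units for each gene (points) with the median (bar), for complexes I to V, for other mitochondrial lists and for markers of cell types; the number of genes is in brackets. Every nuclear mitochondrial list has its median below -0.3, the 2 genes of mitochondrial DNA lie at 0.00 and 0.15, and the neutrophil and phagocyte markers have medians above 2.

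The layout also shows each loss in the absence and presence of the other gene. Over the 80 members, loss of Bmi1 went with a median of 0.058 where Mel18 was present (62 above 0) and of -0.70 where it was deleted (78 below 0). Loss of Mel18 went with a median of 0.17 where Bmi1 was present (66 above 0) and of -0.58 where it was deleted (77 below 0). The departure from additivity, DKO minus Bmi1ΔIEC minus Mel18ΔIEC plus WT, had a median of -0.77 over the members and of -0.08 over all genes, and was below 0 in 76 of the 80 members. Every one of these values uses the same 4 arrays, the difference between the effects was not tested, and genotype, animal and array cannot be told apart.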

How the data were processed

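Total RNA of 4 samples, 1 per genotype, was hybridised to single-colour arrays. The authors deposited 1 table of intensity values on a linear scale. Per the submitters' processing notes these came from RMA in Affymetrix Expression Console, whose versions the sources used here do not give. RMA brings the arrays to one distribution, which removes shifts that most genes share. Log2 was taken with no offset. Of 35556 probe sets, 21789 had 1 symbol in the platform annotation, 1621 several and 12146 were not listed; the brightest probe set stood for a gene. Having 4 arrays limits the precision.

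The members and lists were chosen with earlier results of these data known, and the groups by role in a complex, the level of 10 for bright genes and the baselines other than WT were set after the values were seen. Of 14 letter strings searched in promoters, the 6 shown were chosen after their shares were seen. Genes were named by rule. The rule took the 3 lowest and 2 highest in DKO minus WT of each complex and the 5 largest differences of each single deletion. It also took paralogs of 1 subunit and up to 3 genes per companion list. The extremes of role groups, the markers named and the factors of the promoter letters were added afterwards. Python 3.11.15 and limma 3.58.1 in R 4.3.3 were used, and the limma fit was tested on simulated data. Alternatives changed the floor (none or 8), the scaling (median centring, cyclic loess), an offset of 32, the probe set rule, the membership, the fold threshold (2-fold) and the baseline.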

Additional observations from a re-analysis of the deposited data

Results flagged for a closer look

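The effect of losing Bmi1 on the 80 measured members differed with the state of Mel18: the median log2 difference was 0.058 with Mel18 present and -0.70 with Mel18 deleted. The effect of losing Mel18 differed in the same way, with a median of 0.17 with Bmi1 present and -0.58 with Bmi1 deleted. Both stood out because the medians have opposite signs; for Bmi1 that sign is lost when each array is centred on its median, where 0.058 becomes -0.02. For Bmi1 the signs were opposite in 62 of the 80 members and for Mel18 in 64. The difference was not tested, since each state has 1 array, and both pairs of effects use the same 4 arrays. Gene by gene both differences equal the departure from additivity, so neither is a result separate from the other.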

How the results depend on the processing

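Of 361 alternative values, 304 kept within 0.1 log2 or, for counts, within 1.5 times, 56 moved further and 1 reversed; 5 changed sign, among them the Bmi1ΔIEC minus WT median, which median centring moved from 0.058 to -0.02. Cyclic loess moved most. The DKO minus WT medians were then -0.33 over all members and -0.43, -0.33, -0.40, -0.15 and -0.31 for complexes I to V. The median against the single deletions was -0.44, and cytochrome c reversed to 0.011. The counts at least 1.5-fold lower were 20 and 27, with 79 members above the floor and no share of all genes given under that scaling. With Mel18ΔIEC as the baseline of DKO (chosen after seeing the data) the median was -0.70 and the count 53. At 2-fold the counts lower were 1 for DKO minus WT and 10 against the single deletions, and those of either single deletion were 0 in both directions. With a floor of 8, with 32 added, or without restricted isoforms, the count lower was 0 on Bmi1ΔIEC and 0 on Mel18ΔIEC, since Cox8b alone made it; without those isoforms the count higher on Bmi1ΔIEC was also 0. Mel18ΔIEC minus Bmi1ΔIEC, added after seeing the data, gave 0 lower and 1 higher. With no floor the complex IV median was -0.21. limma called 0 members under every alternative. Among 202 alternative values for 30 named genes, 29 moved. The median over all genes in DKO minus WT was -0.05, -0.13 after median centring and 0.02 after cyclic loess. No paired analysis was possible because each genotype has 1 array. For the same reason no replicate could be left out. No array-to-array error is known, so depth of evidence is limited to 1 array a group, and genes near the floor carry the least signal over background.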
